A study of Homo sapiens with 30 samples.

Results

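Cytosolic ribosomal protein genes were followed across 30 poly(A)-selected RNA-seq libraries of diffuse large B-cell lymphoma (DLBCL) lines, tumours of mature B cells grown as established cultures. The members were the protein-coding genes whose symbol is RPL or RPS followed by a number, with an optional final letter, L or both, together with RPLP0, RPLP1, RPLP2 and RPSA. The RPS6K kinases, RPS19BP1, RPS27L and read-through names were left out. This rule uses no measured value and gave 81 of 60656 genes, 50 of the large ribosomal subunit and 31 of the small subunit. Cells of SUDHL5, OCI-LY19, HT and OCI-LY3, all with the genotype label WT, were collected untreated (0 h) or after exposure for 24 h to doxorubicin at 0.2 µM; this anthracycline traps topoisomerase II on DNA. A further pair of groups came from OCI-LY19: OCI-LY19S, the sensitive parental culture grown without drug, and OCI-LY19R, 1 derivative with acquired resistance, maintained with 20 nM of the drug, which was withdrawn 1 week ahead of the experiment. Each of the 10 groups had 3 libraries from separate experiments. The untreated libraries of the 4 lines were labelled 0 h, so drug exposure and time in culture cannot be told apart.

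Ribosomal proteins assemble with ribosomal RNA in the nucleolus and are needed in equal numbers, 1 copy of most per ribosome. Their mRNAs are among the most abundant of dividing cells, and many begin with a C followed by a run of pyrimidines (the 5′ terminal oligopyrimidine, or TOP, tract), through which mTOR and LARP1 control their translation and stability. When ribosome assembly is disturbed, free RPL5 and RPL11 bind MDM2 and stabilise p53, and inherited loss of 1 copy of RPS19 or several other members causes Diamond-Blackfan anaemia.

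To show what the members shared at their start sites, a C followed by 4 bases that are each C or T was searched on the sense strand of the RefSeq promoters (GRCh38.p14), which matched 64 of the 81 members. The tract stood at the annotated start in 42 of 64 members (65.6%) and in 4.07% of all 35116 promoters. Within 5 bases of the start it was found in 51 members (79.7%) and in 21.1% of all promoters. The sequences below run 5′ to 3′ from 40 bases before the start to 20 bases into the transcript, with the tract in capitals. They belong to 7 of the members described below, 5 with the tract and 2 without, picked as examples after their values were seen. RPS26 and RPS4X hold no such letters at or within 5 bases of their annotated start, and neither do RPL9 and RPS27A, which are not printed.
RPS19 (chr19:41860215-41860274, plus strand): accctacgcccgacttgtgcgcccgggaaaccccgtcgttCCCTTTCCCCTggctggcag
RPL13A (chr19:49487568-49487627, plus strand): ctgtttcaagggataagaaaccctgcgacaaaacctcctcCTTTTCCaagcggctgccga
RPL3 (chr22:39319604-39319663, minus strand): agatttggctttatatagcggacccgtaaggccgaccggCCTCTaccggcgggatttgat
RPS14 (chr5:150449720-150449779, minus strand): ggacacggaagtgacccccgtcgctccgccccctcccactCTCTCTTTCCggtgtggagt
RPS25 (chr11:119018324-119018383, minus strand): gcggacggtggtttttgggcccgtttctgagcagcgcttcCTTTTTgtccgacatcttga
RPS26 (chr12:56041878-56041937, plus strand): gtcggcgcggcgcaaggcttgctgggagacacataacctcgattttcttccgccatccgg
RPS4X (chrX:72277229-72277288, minus strand): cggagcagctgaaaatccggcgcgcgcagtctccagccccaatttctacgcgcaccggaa

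The deposited values were FPKM, reads divided by exon length and by the library's depth. The read total behind them ran from 16067405 to 121769119 per library, both ends reached by single libraries, HT doxorubicin replicate 1 and OCI-LY19S replicate 3. The B cell markers MS4A1, CD79A, CD79B, PAX5, CD22 and CD74 were each at or above 1 FPKM in at least 1 library of each group. Sums over 5 T and NK cell, 5 myeloid and 7 stromal, epithelial and endothelial markers stayed at or below 17.4, 33.0 and 13.3 FPKM. Some markers moved with the drug. The myeloid sum was 5.16 to 9.25 FPKM in untreated and 19.6 to 33.0 in treated OCI-LY19, and 0.266 to 0.455 and 5.33 to 6.29 in SUDHL5, where the T and NK cell sum was 3.95 to 4.47 untreated and 14.1 to 16.6 treated. The stromal, epithelial and endothelial sum was 0.160 to 0.264 FPKM in OCI-LY19S and 4.58 to 13.3 in OCI-LY19R. The B cell markers named above fell in OCI-LY3, while those other than CD79A rose in SUDHL5 (CD79A: -0.02 ± 0.09 on the log2 scale, adjusted p = 0.939); their part in the members' changes was not tested. Each library name ended in a tag from L3 to L6 whose meaning the labels do not state. All SUDHL5, OCI-LY19S and OCI-LY19R libraries carried L3 and no library of the other lines did.

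The 81 members together took 7.602% to 11.47% of the summed FPKM of a library. In OCI-LY19 this share was 7.93% ± 0.369 (SD, n = 3) untreated and 9.66% ± 0.802 after doxorubicin, and the groups did not overlap. In OCI-LY3 it was 8.74% ± 0.637 and 7.99% ± 0.418, with overlapping groups. SUDHL5 had 10.1% ± 0.110 and 10.4% ± 0.0639, again without overlap, and HT 8.29% ± 0.297 and 8.05% ± 0.486 with overlap. OCI-LY19S and OCI-LY19R had 10.2% ± 1.14 and 10.3% ± 0.804 and overlapped. A share of the mRNA pool does not give the amount of mRNA per cell, which was not measured.

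**Figure D1:**
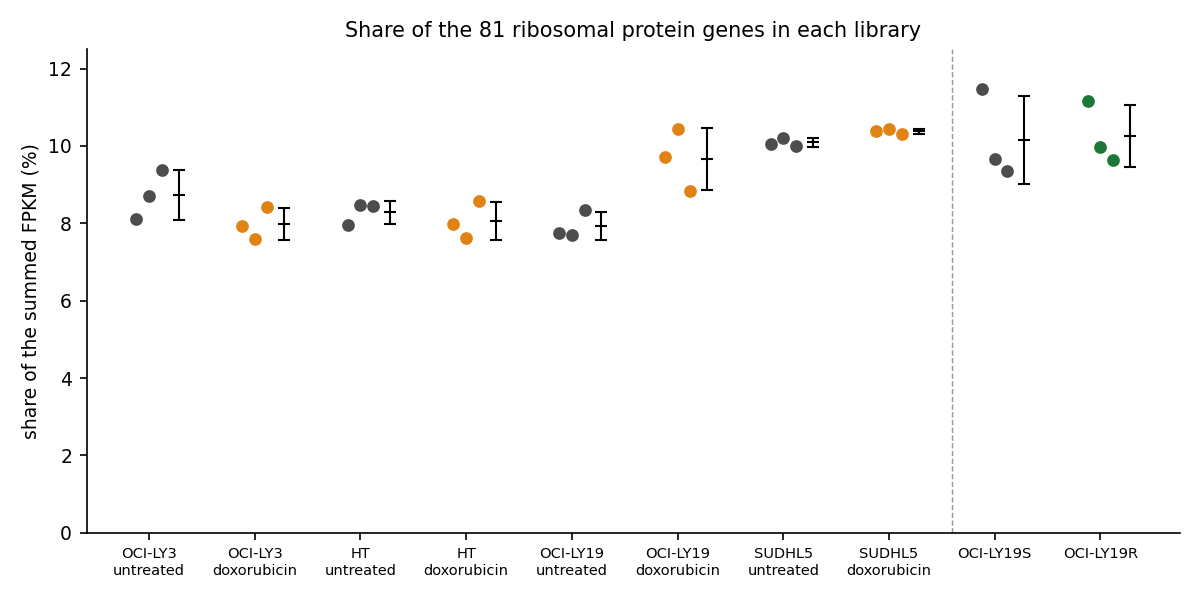
Share of the summed FPKM (percent, vertical axis) taken by the 81 ribosomal protein genes in each of the 30 libraries (points), with the mean and SD of each group beside them; the dashed line separates the 2 deposited tables. The OCI-LY19 doxorubicin libraries lie above their untreated libraries, whereas the OCI-LY3 and HT groups overlap.

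Comparisons of level between members depend on the gene length used. The lengths behind the FPKM cover all annotated exons of a gene, with a median of 2899 bases over the members against 859 bases for the principal transcript, and 9840 bases for RPS29. Per kilobase of principal transcript, RPS18 had the highest mean over the 24 libraries of the 4 lines (3253 on the FPKM scale with that length), ahead of RPL13A (2390) and RPS2 (2257). The principal transcript was long for some members, 7686 bases for RPL37, and its 4498 bases for RPL13 exceeded the exon length of 3866. Members had up to 91 annotated pseudogenes (RPL23A), whose part in the levels was not tested. At the other end, a few members were under 10 FPKM in every group. RPL10L and RPL3L, copies of RPL10 and RPL3 known from testis and from muscle, had group means of 0 to 0.0182 and 0.0327 to 0.321 FPKM. They were among the 3 members under the filter of 1 FPKM in 3 libraries, which were not tested, and 78 were left. RPS10, RPL17 and RPL36A were tested at group means of 0.865 to 2.46, 1.77 to 5.85 and 1.28 to 5.43 FPKM. They overlap read-through genes on the same strand, and RPL17 overlaps small nucleolar RNA genes as well. The bases shared were 39.4%, 32.7% and 8.4% of their exon bases, so their values are uncertain as measures of the gene. Of the high members, RPS2 and RPL13A shared 25.6% and 17.3% with small nucleolar RNA genes and another gene each.

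After doxorubicin the members mostly rose in OCI-LY19 and mostly fell in OCI-LY3 among those that passed, although after quantile normalization more rose than fell in OCI-LY3 (12 and 9). Changes are given as log2 differences of FPKM + 1 with the standard error (SE), tested with limma and Benjamini-Hochberg adjustment over 17645 genes, threshold 0.05. In OCI-LY19, 34 of 78 members rose and 3 fell, where 34.5% of all genes tested rose and 23.7% fell. In SUDHL5, 8 rose and 0 fell (18.6% and 19.9% of all genes). In OCI-LY3, 2 rose and 26 fell (40.4% and 14.3% of all genes), and in HT 0 rose and 8 fell (22.9% and 9.41%). Against these backgrounds 43.6% of the members rose in OCI-LY19 and 10.3% in SUDHL5, and 33.3% fell in OCI-LY3 and 10.3% in HT. Which side of the background a share lay on depended on the scale. In OCI-LY19 25.6% of members rose with median-of-ratios scaling, against 29.8% of all genes, and 64.1% against 25.1% after quantile normalization. In SUDHL5 24.4% rose after quantile normalization, against 18% of all genes. In OCI-LY3 82.1% fell with median-of-ratios scaling and 11.5% after quantile normalization, against 25.3% and 23.8% of all genes, and in HT 17.9% and 6.41%, against 13% and 12.8%. The median member change was 0.19 in OCI-LY19, 0.10 in SUDHL5, -0.07 in HT and -0.16 in OCI-LY3, where the median over all genes was 0.08, 0.0013, 0.06 and 0.16. All 8 members that fell in HT were among the 26 that fell in OCI-LY3, and all 8 that rose in SUDHL5 were among the 34 that rose in OCI-LY19 (30.8% and 23.5% of the longer lists). Members that fell in OCI-LY3 and rose in OCI-LY19 numbered 11 (42.3% of the former list and 32.4% of the latter), among them RPL11, RPL22, RPL9, RPS14 and RPS6. There were 15 such members with median-of-ratios scaling, which left out RPL11 and RPS14, and 6 after quantile normalization, of which RPL22 alone was among these 5. For the shared and the opposite calls, the overlap over all genes is not given here. Whether such overlaps are particular to the members was not tested. Each line had its own untreated libraries, and the estimate of the spread was common to the 4 lines. In all, 27 of the 78 passed in none of the 4 lines. Among all genes called, the share that rose moved with the scale: from 73.9% to 51.5% (median-of-ratios) and 50.9% (quantile) in OCI-LY3, from 70.9% to 55.9% and 52.2% in HT, from 59.3% to 44.7% (quantile) in OCI-LY19 and from 48.4% to 38.1% (TPM) in SUDHL5.

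**Figure D2:**
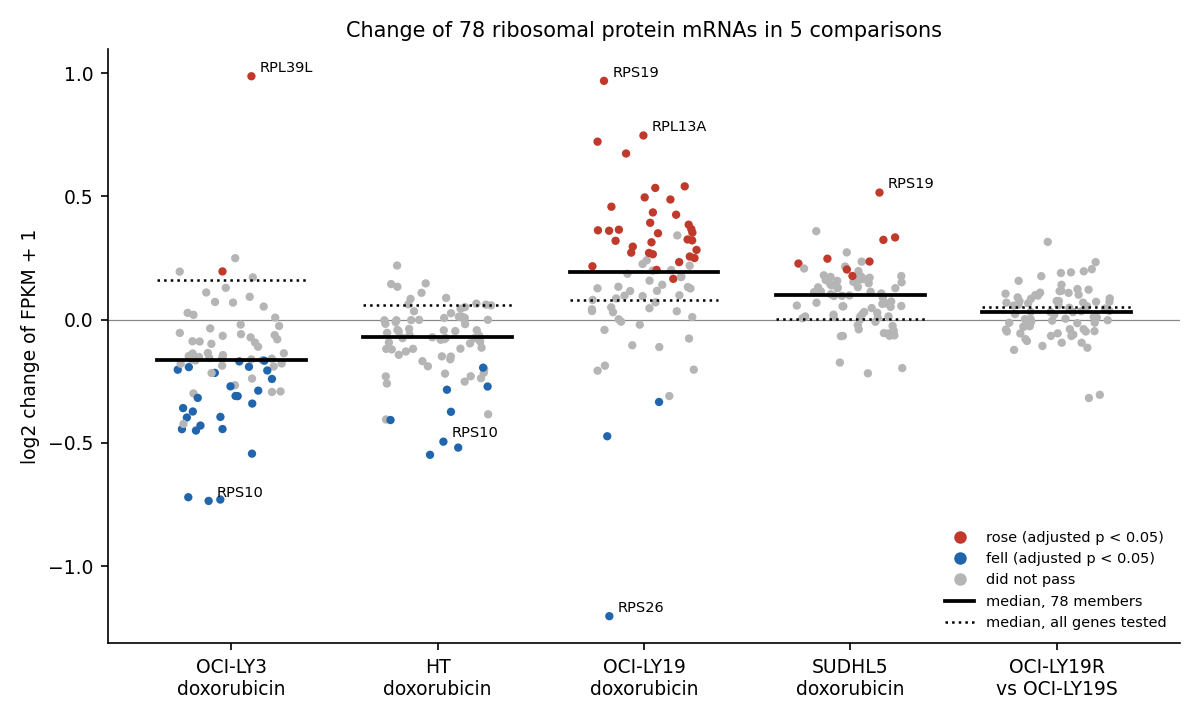
Change of each of the 78 tested members (points; vertical axis, log2 change of FPKM + 1) in the 5 comparisons, coloured by direction where the adjusted p was under 0.05, with the median of the members (solid line) and of all genes tested (dotted line). Members sit mostly above 0 in OCI-LY19 and mostly below 0 in OCI-LY3, and no point of the OCI-LY19R comparison is coloured.

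In OCI-LY19 the largest rise was that of RPS19, a small subunit protein needed for maturation of the small subunit rRNA. Its FPKM was 266.2, 266.7 and 288.2 untreated and 583.9, 548.3 and 481.2 after doxorubicin, so every treated library was above every untreated one. The difference was 0.97 ± 0.10 (log2, SE), adjusted p = 1.32e-07. RPL13A, a large subunit protein, read 764.0, 797.3 and 965.4 FPKM untreated and 1401, 1494 and 1330 treated (0.75 ± 0.11, adjusted p = 9.6e-06). RPL3, which reaches toward the peptidyl transferase centre, went from 450.9, 467.4 and 507.4 to 791.9, 804.3 and 754.5 FPKM (0.72 ± 0.08, adjusted p = 1.84e-07). For both, the treated and untreated libraries were fully apart. RPS27, at 579.7, 525.9 and 494.7 FPKM, reached 905.5, 1049 and 645.6, with a wide spread among the treated libraries (0.67 ± 0.16, adjusted p = 0.00142). RPS4X, the X-linked form of this small subunit protein, went from 311.8, 338.6 and 315.7 to 483.8, 481.2 and 441.7 FPKM (0.54 ± 0.06, adjusted p = 1.5e-07). These 5 calls held under each alternative run and without any 1 OCI-LY19 library.

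Against this direction stood RPS26, a small subunit protein at the mRNA exit channel. Its FPKM in OCI-LY19 was 89.8, 83.6 and 102.6 untreated and 41.2, 43.8 and 33.4 after doxorubicin. The treated level was less than that of any untreated library (-1.204 ± 0.14, adjusted p = 5.03e-07), and this was the largest change of any member in either direction. RPL17, at the peptide exit tunnel, fell from 4.21, 5.38 and 4.82 to 3.10, 3.81 and 2.67 FPKM (-0.47 ± 0.17, adjusted p = 0.0191), but the call ended without untreated replicate 2 or doxorubicin replicate 3 (adjusted p = 0.0761 and 0.0906). RPL36AL, the autosomal copy of X-linked RPL36A, read 149.8, 134.4 and 180.4 FPKM untreated and 117.9, 135.0 and 113.2 treated, with overlap between the groups (-0.33 ± 0.14, adjusted p = 0.0486). Its call ended without untreated replicate 1 or 3 or doxorubicin replicate 1 or 3 (adjusted p between 0.0711 and 0.238) and under 5 other settings (0.0504 to 0.894). The count of falling members was 5 without doxorubicin replicate 2 and 1 without doxorubicin replicate 3. With median-of-ratios scaling 20 members rose in OCI-LY19 in place of 34.

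**Figure D3:**
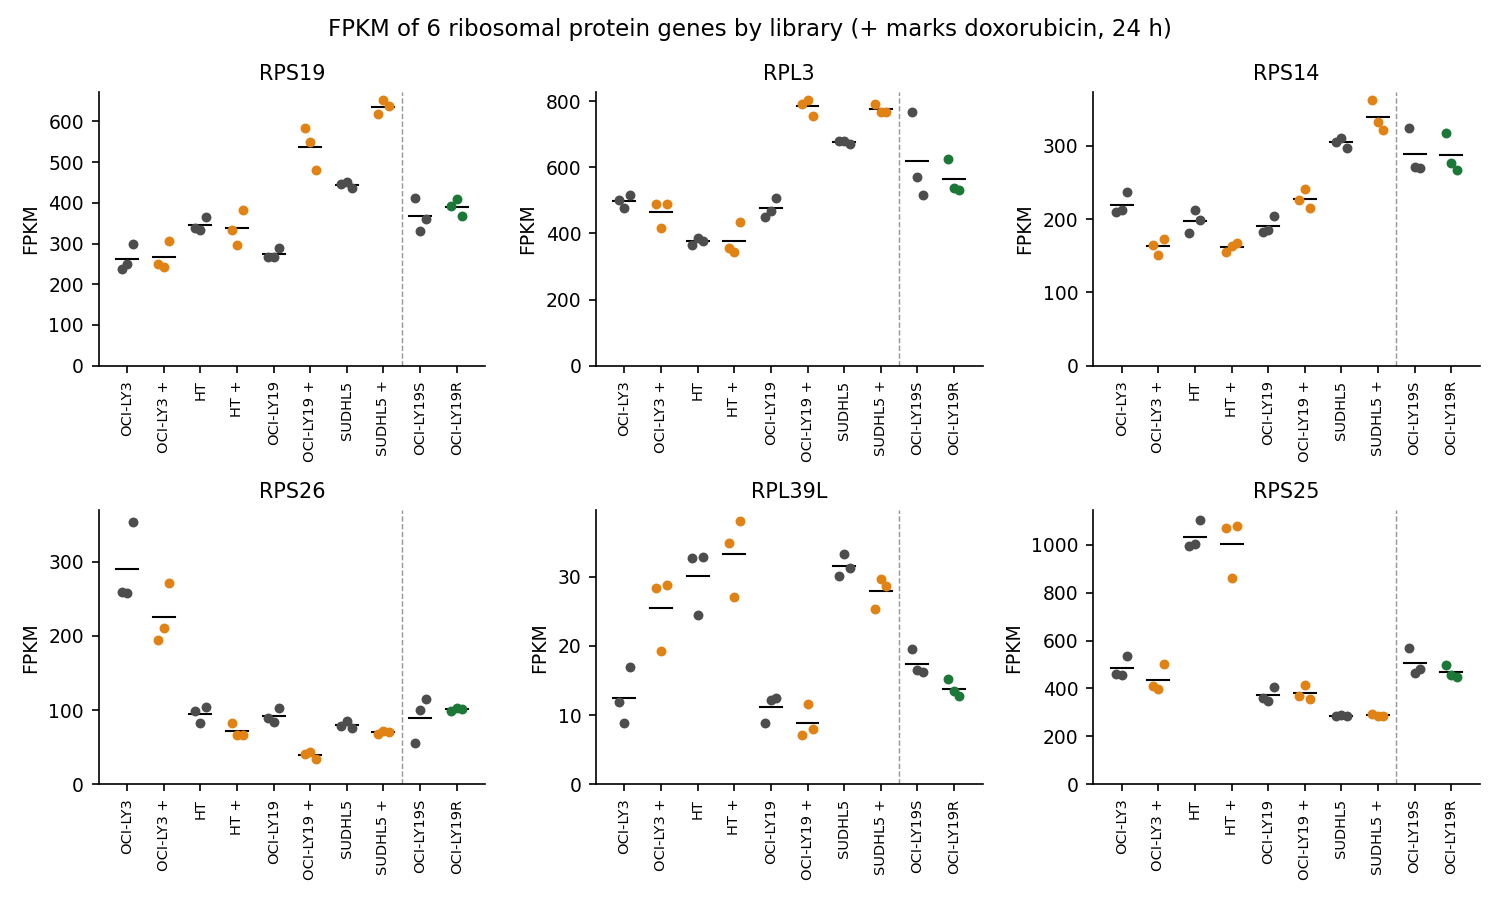
FPKM (vertical axes, from 0) of RPS19, RPL3, RPS14, RPS26, RPL39L and RPS25 in every library (points) by group, with group means as lines; + marks 24 h of doxorubicin, and the dashed line separates the 2 deposited tables. RPS19 is higher in treated OCI-LY19 and SUDHL5, RPS26 is high in OCI-LY3 and lowest in treated OCI-LY19, and RPS25 is highest in HT.

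In SUDHL5 the rises were smaller. RPS19 led here too, from 446.4, 451.8 and 435.8 FPKM to 617.9, 651.5 and 638.6 (0.52 ± 0.10, adjusted p = 0.000451), again without overlap. RPS9, a small subunit protein, read 233.7, 233.3 and 230.1 FPKM untreated and 296.5, 293.7 and 288.8 treated (0.33 ± 0.11, adjusted p = 0.0244). RPL13A went from 1599, 1626 and 1569 to 2030, 1964 and 2004 FPKM (0.32 ± 0.11, adjusted p = 0.026). The libraries of this line lay close together and the treated and untreated values of all 3 genes were fully apart. RPL31, at the peptide exit tunnel, rose by 0.25 ± 0.09 (adjusted p = 0.0419), and RPL7, a large subunit protein, by 0.24 ± 0.06 (adjusted p = 0.00447). RPS4X rose by 0.20 ± 0.06 (adjusted p = 0.00827) and RPL11 by 0.23 ± 0.08 (adjusted p = 0.0251). Of these 7, RPS19 alone kept its call under each alternative run. Leaving out any 1 of the 6 SUDHL5 libraries left 3 to 5 rises, and the calls of RPL13A (without any 1 library), RPS9 and RPL11 (any but doxorubicin replicate 3) and RPL31 (any but doxorubicin replicate 1) ended, with adjusted p up to 0.0726, 0.0636, 0.088 and 0.136. On a TPM scale 1 member rose (1.28%, where 14.7% of all genes rose). A fit on the 6 libraries of SUDHL5 alone gave 36 rises and 3 falls, and its shares over all genes are not given here.

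In OCI-LY3 most members that passed fell. RPS10 read 2.06, 2.19 and 2.06 FPKM untreated and 0.807, 1.03 and 0.759 treated (-0.74 ± 0.11, adjusted p = 1.12e-05). RPL17 went from 5.33, 4.29 and 5.55 to 1.95, 2.75 and 3.34 FPKM (-0.73 ± 0.17, adjusted p = 0.000894), and RPL36A from 2.73, 3.20 and 2.38 to 1.09, 1.52 and 1.24 FPKM (-0.72 ± 0.10, adjusted p = 8.34e-06). These 3 with the largest falls are the low members that overlap read-through genes, and none of their treated libraries reached an untreated one. RPL38, a large subunit protein, read 79.9, 67.9 and 111.0 FPKM untreated and 48.9, 49.3 and 79.3 treated, with overlap (-0.54 ± 0.21, adjusted p = 0.036). RPL35A went from 278.7, 270.1 and 335.5 to 197.8, 200.03 and 249.2 FPKM (-0.45 ± 0.10, adjusted p = 0.000731), and RPS14, a protein of the small subunit platform, from 210.2, 212.3 and 236.9 to 164.5, 150.9 and 173.2 FPKM (-0.43 ± 0.07, adjusted p = 4.99e-05). Both were below all untreated libraries in every treated one. The RPL38 call ended without untreated replicate 1 or 3 or doxorubicin replicate 1 or 2 (adjusted p between 0.0531 and 0.204). RPS26 also fell in this line, from 259.5, 257.5 and 353.4 to 194.4, 211.4 and 271.4 FPKM (-0.36 ± 0.14, adjusted p = 0.0371), and this call ended without untreated replicate 3 or doxorubicin replicate 1 or 2 (0.106 to 0.235). Under quantile normalization the limma calls of RPS14 and RPS26 in OCI-LY3 ended (adjusted p = 0.0859 and 0.381). That of RPS26 also ended with no filter (0.0836) and with the line's own libraries (0.173). The call of RPL38 ended under 3 alternatives, quantile normalization among them (adjusted p between 0.0837 and 0.154).

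The member that rose most in OCI-LY3 was RPL39L, a copy of RPL39 that can take its place at the peptide exit tunnel. It read 11.9, 8.80 and 16.9 FPKM untreated and 28.3, 19.2 and 28.7 treated, without overlap (0.99 ± 0.21, adjusted p = 0.000477). RPL39 itself read 151.9, 138.5 and 199.0 untreated and 122.1, 120.2 and 181.1 treated (-0.22 ± 0.17, adjusted p = 0.296). RPL10, which completes the large subunit late in its assembly, rose by 0.20 ± 0.07 (adjusted p = 0.0237), and this call ended without untreated replicate 1 or doxorubicin replicate 1 or 3 (0.0643 to 0.0996) and turned to -0.08 with median-of-ratios scaling. How many members fell in OCI-LY3 depended on the scale. The count was 26 on FPKM, 64 with median-of-ratios scaling and 63 with TMM library sizes on reads recovered from the FPKM, but 9, with 12 rises, after quantile normalization. The median over all genes in this line moved from 0.16 to 0.0064 and -0.0010 under the first and last of these, and the member median from -0.16 to -0.44 and 0.04, so that the members lay 0.45 below all genes under the former and 0.04 above them under the latter. Without untreated replicate 3 or doxorubicin replicate 2 the count on FPKM was 17 and 16. A fit on the line's own libraries gave 12 falls, and its shares over all genes are not given here. Without untreated replicate 1 or doxorubicin replicate 1 or 3 of OCI-LY3, 1 member rose in place of 2, and without untreated replicate 2 or doxorubicin replicate 2, 3 rose.

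In HT the 8 falls were RPL17, RPL36A, RPS10, RPS26, RPL35, RPS14, RPL5 and RPL18. With the replicate number as a block, 11 members fell (14.1%, where 11% of all genes fell). RPL36A went from 4.64, 4.91 and 4.08 to 3.03, 2.9998 and 2.56 FPKM (-0.52 ± 0.10, adjusted p = 0.000806). RPS10 went from 2.79, 2.19 and 2.39 to 1.68, 1.56 and 1.13 FPKM (-0.50 ± 0.11, adjusted p = 0.00172). Both were lower in each treated library. RPL17 fell by 0.55 ± 0.17 on the log2 scale (adjusted p = 0.0152), RPS26 by 0.41 ± 0.14 (0.0322) and RPL35, at the peptide exit tunnel, by 0.37 ± 0.13 (0.0313). These 3 calls ended without single libraries: RPL17 without untreated replicate 1 or doxorubicin replicate 3 (adjusted p up to 0.101), RPS26 without untreated replicate 1 or 3 or doxorubicin replicate 2 or 3 (up to 0.123) and RPL35 without untreated replicate 1 or 3 or doxorubicin replicate 2 (up to 0.124). The calls of RPL17 and RPS26 also ended with the line's own libraries (adjusted p = 0.115 and 0.0839). Those of RPS26 and RPL35 ended with no filter (0.0746 and 0.0741). Leaving out any 1 HT library left 4 to 6 falls, with 5 without untreated replicate 1 and 4 without doxorubicin replicate 2.

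The responses themselves were compared by an F test of the interaction with the line. They differed for 42 of 78 members (53.8%), below the 72.2% of all genes tested. The smallest adjusted p values were those of RPS4X (6.03e-06), RPL3 (1.06e-05), RPS19 (1.26e-05), RPS14 (1.47e-05) and RPS3A (6.44e-05). Between pairs of lines, the response in OCI-LY3 was lower than in OCI-LY19 for 43 members and higher for 2, where 18.7% of all genes were lower and 29% higher. In HT it was lower than in OCI-LY19 for 32 members and higher for 1 (22.6% of all genes in each direction), and in OCI-LY3 lower than in SUDHL5 for 32 (15% of all genes). The response of RPS19 in HT was 1.01 ± 0.14 below that in OCI-LY19 on the log2 scale (HT minus OCI-LY19: -1.01, adjusted p = 1.33e-05), and that in OCI-LY19 was 0.45 ± 0.14 above SUDHL5 (adjusted p = 0.0157). For RPS26 the fall in OCI-LY19 was larger than in each other line, by 0.84 ± 0.20 against OCI-LY3 (adjusted p = 0.00163), 0.80 ± 0.20 against HT (0.0029) and 1.01 ± 0.20 against SUDHL5, where the difference OCI-LY19 minus SUDHL5 was -1.01 (0.000435). The rise of RPL39L in OCI-LY3 exceeded the change in HT by 0.84 ± 0.29 (adjusted p = 0.0371), that in OCI-LY19 by 1.30 ± 0.29 (0.00119) and that in SUDHL5 by 1.16 ± 0.29 (0.00284).

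By role, 19 of 48 tested large subunit members and 15 of 30 small subunit members rose in OCI-LY19, and 17 and 9 fell in OCI-LY3. Of all genes tested, 34.5% rose in OCI-LY19 and 14.3% fell in OCI-LY3. The difference between the subunits was not tested. The P stalk, which recruits elongation factors, is RPLP0, RPLP1 and RPLP2. RPLP0 rose in OCI-LY19 from 601.5, 659.6 and 654.0 to 882.4, 824.6 and 807.1 FPKM (0.39 ± 0.06, adjusted p = 2.01e-05), and RPLP1 from 427.6, 439.5 and 458.6 to 616.7, 613.2 and 507.9 (0.38 ± 0.09, adjusted p = 0.00115). RPLP2, their partner, read 341.5, 395.2 and 387.3 FPKM untreated and 330.6, 430.4 and 291.0 treated (-0.11 ± 0.12, adjusted p = 0.438), with full overlap. None of the 3 passed in the other lines.

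RPL5 and RPL11, the MDM2-binding pair, did not pass in all the same lines. A difference between their changes was not tested. RPL5 fell in OCI-LY3 from 346.5, 331.6 and 329.6 to 290.6, 254.8 and 280.2 FPKM (-0.29 ± 0.06, adjusted p = 0.000371) and in HT by 0.20 ± 0.06 on the log2 scale (0.016). Quantile normalization ended both calls of RPL5 (adjusted p = 0.792 in OCI-LY3 and 0.482 in HT), and the HT call also ended with the 6 libraries of that line alone (0.105). Its changes in OCI-LY19 and SUDHL5 were 0.13 ± 0.06 and -0.07 ± 0.06 (adjusted p = 0.0768 and 0.423). RPL11 fell in OCI-LY3 by 0.20 ± 0.08 on the log2 scale (adjusted p = 0.0315) and rose in OCI-LY19 from 338.5, 353.0 and 383.7 to 423.5, 466.4 and 390.3 FPKM (0.25 ± 0.08, adjusted p = 0.00931). After quantile normalization the OCI-LY3 change of RPL11 turned to 0.04 (adjusted p = 0.598), and the call ended with no filter (0.0697) and with the line's own libraries (0.173). Single libraries ended several of these calls: RPL5 in HT without untreated replicate 2 or doxorubicin replicate 1 or 2 (adjusted p up to 0.0871), RPL11 in OCI-LY3 without untreated replicate 3 or doxorubicin replicate 1 or 2 (up to 0.16) and RPL11 in OCI-LY19 without doxorubicin replicate 2 (0.0593). The OCI-LY19 call of RPL11 also ended with median-of-ratios scaling (0.143), as did that of RPS14 (0.117), which rose there by 0.26 ± 0.07 on FPKM (adjusted p = 0.00525). The fall of RPS14 in HT ended after quantile normalization (0.183).

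RPS6, the substrate of S6 kinase, rose in OCI-LY19 from 701.2, 716.3 and 743.2 to 898.4, 949.9 and 860.1 FPKM (0.32 ± 0.07, adjusted p = 0.000309). In OCI-LY3 it fell by 0.17 ± 0.07 on the log2 scale (0.0389), a call that ended without any 1 library of the line but doxorubicin replicate 3 (adjusted p up to 0.166) and under 5 other settings (0.0515 to 0.353). RPL22, a large subunit protein with a paralog outside the member list, fell in OCI-LY3 from 17.1, 17.1 and 18.3 to 13.8, 13.9 and 16.4 FPKM (-0.24 ± 0.06, adjusted p = 0.00302) and rose in OCI-LY19 from 13.8, 13.6 and 15.2 to 17.2, 17.7 and 18.6 (0.31 ± 0.06, adjusted p = 0.000276). Each of these pairs of groups was fully apart. The OCI-LY3 call of RPL22 ended with the line's own libraries (adjusted p = 0.0519). RPS27A, made as a fusion with ubiquitin, fell in OCI-LY3 (-0.19 ± 0.06, adjusted p = 0.00997; 0.0677 without untreated replicate 2) and passed in no other line. Its change in OCI-LY3 turned to 0.04 after quantile normalization (adjusted p = 0.771), and the call ended with the line's own libraries (0.0661). RPL41, the smallest member, and RPSA, also known as the laminin receptor, passed in none of the 4 lines. Of the 19 Diamond-Blackfan anaemia genes among the members, 18 were tested, of which 13 fell in OCI-LY3, 5 fell in HT, 8 rose and 1 fell in OCI-LY19 and 3 rose in SUDHL5. Over all genes tested, 14.3% fell in OCI-LY3, 9.41% fell in HT, 34.5% rose and 23.7% fell in OCI-LY19 and 18.6% rose in SUDHL5. Over the 78 members these shares were 33.3%, 10.3%, 43.6%, 3.85% and 10.3%. The falls of the 78 members in OCI-LY3 depended on the scale (26, 64 or 9), and this subgroup was not tested against the other members. By start site, 21 of 42 members with the tract at the annotated start and 7 of 21 tested members without it there rose in OCI-LY19, and 0 and 3 fell. In OCI-LY3, 15 of 42 with the tract at the start and 9 of 21 without it fell, and 0 and 1 rose. In HT 5 and 2 fell, and in SUDHL5 5 and 2 rose. With the tract within 5 bases of the start, 25 of 51 rose and 1 fell in OCI-LY19, against 3 and 2 of 12 without it. By that window 18 of 51 and 6 of 12 fell in OCI-LY3, where 0 and 1 rose. In HT 5 and 2 fell, and in SUDHL5 6 and 1 rose. These splits were not tested.

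Other genes of the pathway are given by list. All 23 tested ribosome biogenesis factors, which build the particle in the nucleolus, fell in OCI-LY3, as did 19 in HT, 22 in OCI-LY19 and 10 in SUDHL5, with medians of -1.34, -0.55, -0.81 and -0.28. Mitochondrial ribosomal protein genes fell in 52 of 76 in OCI-LY19, where 4 rose (median -0.46), and in 33, 16 and 29 of 76 in OCI-LY3, HT and SUDHL5. Of 15 chaperones and importers of ribosomal proteins, 13 fell and 1 rose in OCI-LY19. Other mRNAs known to carry a TOP tract rose in 9 of 15 and fell in 3 in OCI-LY19 (median 0.28), among them EEF1A1 (0.77, adjusted p = 6.39e-08) and EEF2 (0.66, adjusted p = 4.4e-06), the elongation factors. NPM1, listed there and a nucleolar factor, fell by 1.03 on the log2 scale (adjusted p = 3.52e-09). On this TOP list 2 rose and 4 fell in OCI-LY3, 5 rose and 3 fell in HT, and 4 rose and 7 fell in SUDHL5. Over all genes tested, 40.4%, 22.9%, 34.5% and 18.6% rose in OCI-LY3, HT, OCI-LY19 and SUDHL5. The shares that fell were 14.3%, 9.41%, 23.7% and 19.9%. Of 7 ribosome genes outside the symbol rule, 4 fell and 1 rose in OCI-LY3, 4 fell in HT, 2 rose and 3 fell in OCI-LY19 and 1 rose in SUDHL5. Of 11 tested non-coding hosts of small nucleolar RNAs, 7 fell in OCI-LY3, 6 fell and 1 rose in HT, 4 rose and 3 fell in OCI-LY19 and 4 rose and 2 fell in SUDHL5. Among the paralogs outside the rule, RPS27L, a p53 target, rose by 2.24 (adjusted p = 1.1e-14) in OCI-LY19 and by 1.25 in SUDHL5 (1.51e-10), and RPL22L1, the copy of RPL22, fell by 1.11 on the log2 scale in OCI-LY19 (1.34e-07). These lists were chosen with earlier results of these data known.

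**Figure D4:**
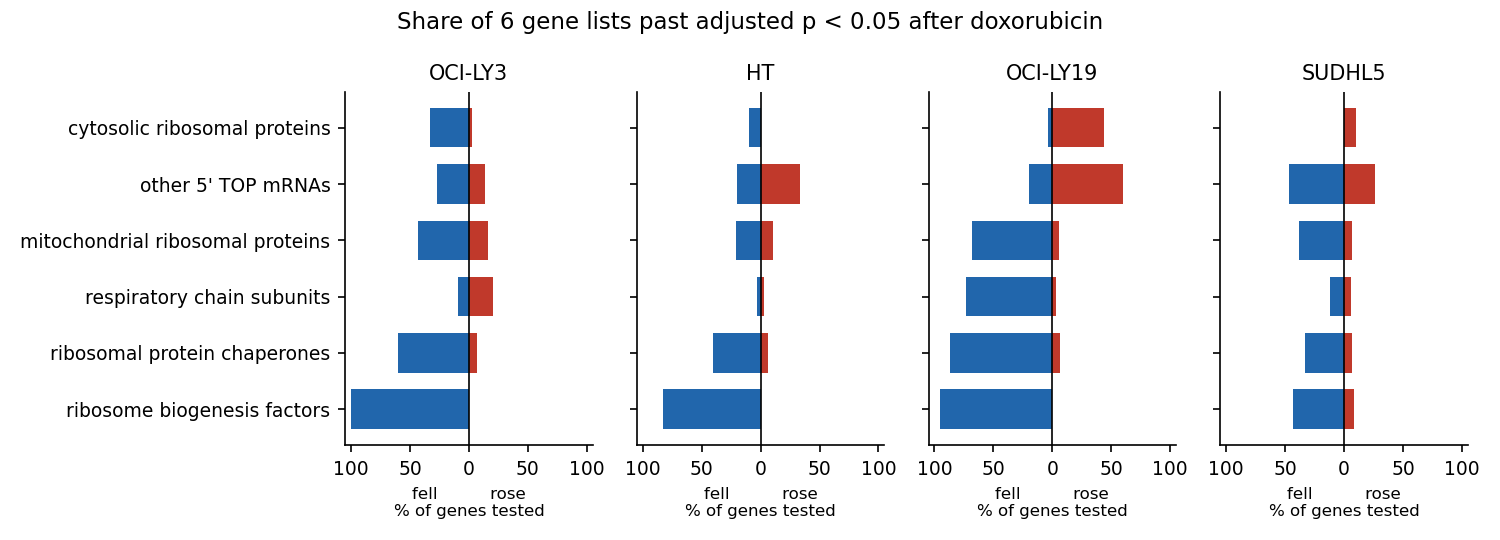
Share of the tested genes of 6 lists (percent, horizontal axis) that rose (red, right of 0) or fell (blue, left of 0) at adjusted p under 0.05 after 24 h of doxorubicin in each line. In OCI-LY19 34 of 78 cytosolic ribosomal protein genes rose, whereas 22 of 23 biogenesis factors and 52 of 76 mitochondrial ribosomal protein genes fell.

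In the resistant derivative OCI-LY19R, 0 of 78 members rose and 0 fell against OCI-LY19S in limma over 12785 genes, of which 3.11% rose and 2.34% fell. At an unadjusted p under 0.05 there was 1 member, RPL39L, and no alternative fit, including the one to recovered reads, made a call. The median member difference was 0.03, beside 0.05 over all genes, and single members ranged from -0.32 to 0.31. RPL39L read 19.6, 16.6 and 16.2 FPKM in the sensitive libraries and 15.1, 13.4 and 12.8 in the resistant ones, without overlap (-0.32 ± 0.11, adjusted p = 0.133). RPL17 had the highest difference (0.31 ± 0.14, adjusted p = 0.236), at 3.56, 4.46 and 5.70 against 5.69, 5.80 and 6.05 FPKM, where the groups overlapped. RPS19 read 410.8, 330.8 and 361.5 FPKM in the sensitive culture, overlapping the 393.1, 408.6 and 368.7 of the resistant one (0.09 ± 0.12, adjusted p = 0.686). RPS26, low after 24 h of drug, also overlapped, at 55.02, 99.985 and 114.79 FPKM in the sensitive libraries against 98.7, 103.0 and 101.5 (0.23 ± 0.26, adjusted p = 0.623). OCI-LY19S replicate 1 stood apart from its replicates (mean chi-square of recovered reads per gene 53.1 and 91.55 against replicates 2 and 3, which differed from each other by 13.44). Without it, 0 members rose, 0 fell and the median member difference was 0.12. This library, low for RPS26, was the highest of its group for RPS19 and the other members named in this paragraph but RPL17. With 3 libraries a group and 4 residual degrees of freedom, a p that misses the threshold does not show that the cultures were alike. The authors' deposited table gave 1 member with an adjusted p under 0.05, RPS12 (log2 fold change -0.37, adjusted p = 0.048), beside 2178 of 20731 genes.

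Before treatment the lines differed in most members. A limma F test passed for 72 of 78, against 90.5% of all genes tested. RPL9, a large subunit protein, separated HT most clearly, at 62.2, 65.8 and 66.2 FPKM, from 169.1 ± 9.50 in OCI-LY3, 171.5 ± 4.51 in OCI-LY19 and 197.0 ± 1.61 in SUDHL5 (mean ± SD, n = 3; HT minus SUDHL5 -1.59 ± 0.06, adjusted p = 2.29e-14). RPS27A was also lowest in HT, at 114.7, 134.8 and 128.8 FPKM, followed by OCI-LY19 at 237.8 ± 4.99, OCI-LY3 at 262.8 ± 16.8 and SUDHL5 at 367.4 ± 1.16, and each neighbouring pair in that order passed its own test. RPS25, which some viral internal ribosome entry sites need, went the other way: HT read 995.6, 1002.5 and 1102 FPKM, against 484.6 ± 45.7 in OCI-LY3, 371.3 ± 30.2 in OCI-LY19 and 285.7 ± 3.52 in SUDHL5 (HT minus SUDHL5 1.85 ± 0.10, adjusted p = 2.57e-12). HT was therefore the line with the lowest RPL9 and RPS27A and the highest RPS25.

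OCI-LY3 was the highest line for other members, RPS26 and RPL35A among them. RPS26 was 259.5, 257.5 and 353.4 FPKM there, and 95.3 ± 11.7 in HT, 92.0 ± 9.68 in OCI-LY19 and 80.2 ± 4.58 in SUDHL5, and the last 3 lines did not differ from each other past the threshold. OCI-LY3 was 1.59 ± 0.14 above HT, the next line (adjusted p = 6.21e-09). RPL35A was 294.8 ± 35.6 FPKM in OCI-LY3 and 126.9 ± 3.65 in HT, the lowest (1.203 ± 0.10, adjusted p = 2.24e-09). RPL39L fell into 2 levels, 30.04 ± 4.85 in HT and 31.6 ± 1.66 in SUDHL5 against 12.53 ± 4.08 in OCI-LY3 and 11.2 ± 1.97 in OCI-LY19, with no difference past the threshold within each pair (adjusted p = 0.763 and 0.636).

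SUDHL5 had the highest mean of the 4 untreated lines for 63 of the 78 members. The share of all genes highest in SUDHL5 is not given here. Its untreated libraries had a summed FPKM of 328527 to 329851, against 291982 to 305594 in the other untreated lines. OCI-LY3, HT and OCI-LY19 were lower than SUDHL5 for 51, 55 and 58 members, where 35.7%, 27.1% and 32.1% of all genes were lower. RPSA, for example, read 749.0, 749.9 and 743.5 FPKM in SUDHL5, against 346.9 ± 5.10 in OCI-LY3, 408.7 ± 11.4 in HT and 402.7 ± 22.7 in OCI-LY19 (OCI-LY3 minus SUDHL5 -1.11 ± 0.07, adjusted p = 1.55e-11). RPS4X read 536.7, 542.1 and 538.3 in SUDHL5 and 289.8 ± 14.1, 309.9 ± 24.0 and 322.0 ± 14.5 FPKM in the other three. The SUDHL5 libraries all carried the tag L3, which no other library of their table had, so line and tag cannot be told apart. Libraries of the line OCI-LY19 carried both kinds of tag. Untreated OCI-LY19, with tags L4 to L6, and OCI-LY19S, with tag L3, come from 2 separately normalized tables and were set side by side without a test. Tag, deposited table and culture changed together between them, and a part of the tag was not tested. The median member was 1.31 times higher in OCI-LY19S, where SUDHL5 was 1.36 times higher than OCI-LY19, and 62 of the 78 members were above without overlap and 0 below. The same count over all genes was not made, so a shift particular to the members was not tested. The summed FPKM was 291982 to 303160 in untreated OCI-LY19 and 312751 to 317647 in OCI-LY19S. The largest ratios of OCI-LY19S to OCI-LY19 were those of RPS15 and RPS29, picked after their values were seen. RPS29 read 20.1 FPKM in OCI-LY19, 43.0 in OCI-LY19S and 44.9 in SUDHL5 (means), and RPS15 read 171.5, 371.4 and 461.3. RPS12 was higher in OCI-LY19S but lower in SUDHL5, at 1483 FPKM in OCI-LY19, 1954 in OCI-LY19S and 891.8 in SUDHL5. RPL17 read 4.803, 4.57 and 1.84. After quantile normalization the members lower in HT than in SUDHL5 numbered 36 in place of 55.

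**Figure D5:**
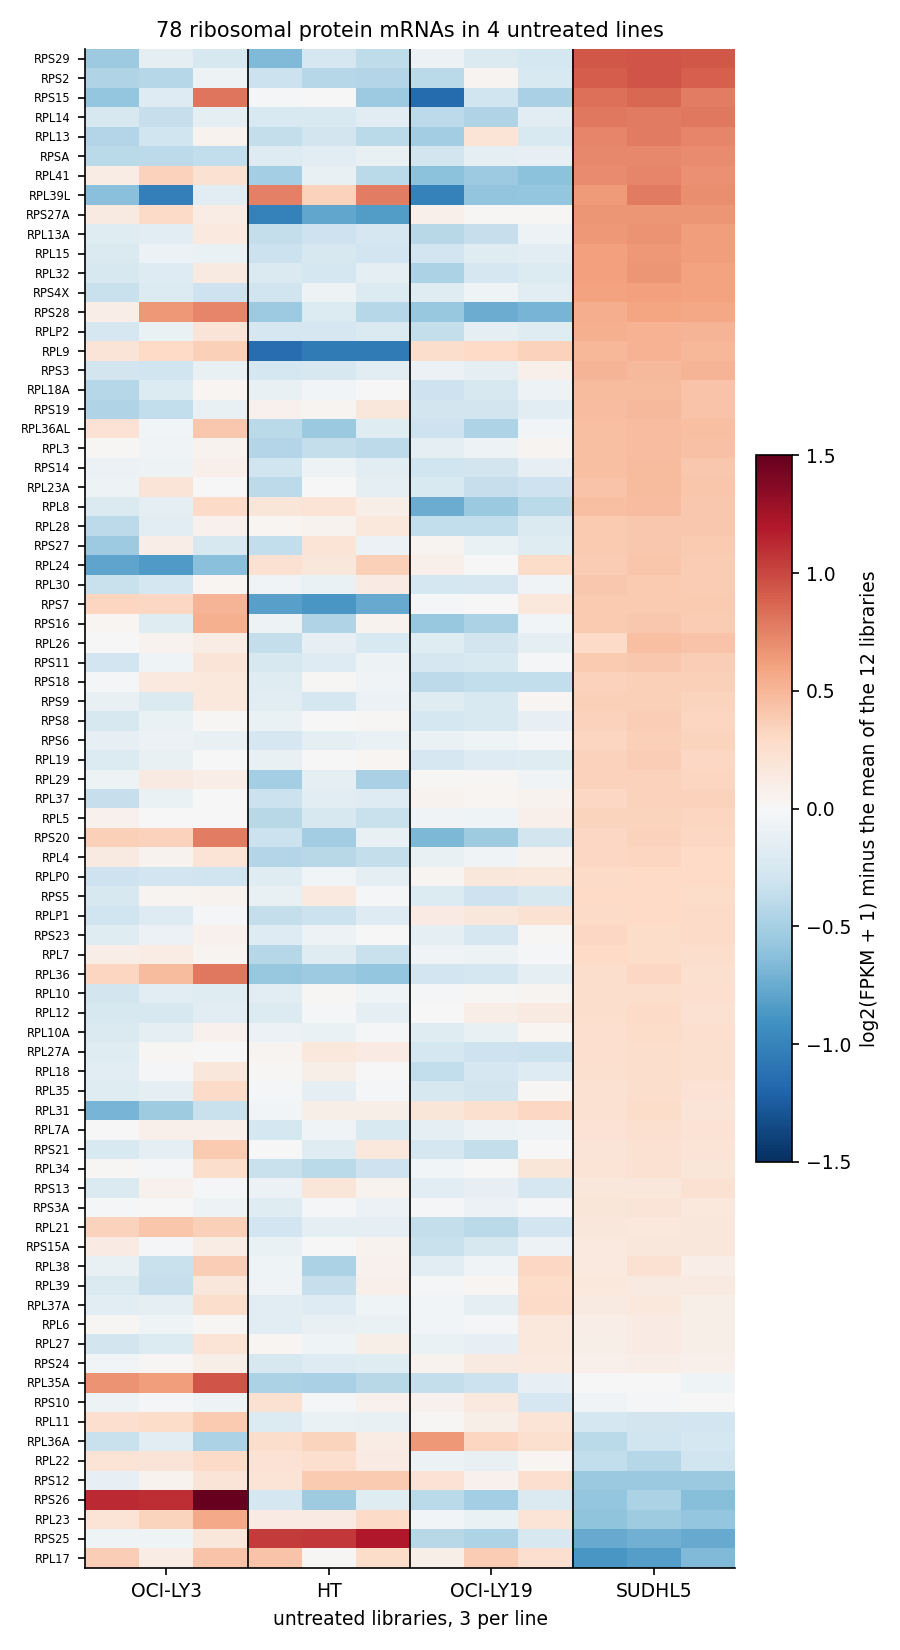
Level of each of the 78 tested members (rows) in the 12 untreated libraries of the 4 lines (columns), as log2(FPKM + 1) minus the mean of the 12 libraries (colour scale from -1.5 to 1.5). SUDHL5 is above the mean for most members, with RPS25, RPS12 and RPL17 below it; RPL9 and RPS27A are low in HT, RPS25 high in HT and RPS26 high in OCI-LY3.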

How the data were processed

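The members and gene lists were chosen with earlier results of these data known. Poly(A)-selected, directional libraries were sequenced, per the labels' protocols. Reads were handled with Trimmomatic, STAR and featureCounts on hg38, per the submitters' processing notes; no source used here gives the annotation release or strand setting. Deposited by the authors were FPKM of the 4 lines (1 table) and of OCI-LY19S with OCI-LY19R (another). The second also holds the authors' comparison: a mean normalized signal (baseMean), log2 fold changes, their standard error and test statistic (deposited scores), and deposited p-values.

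FPKM were not counts, so log2(FPKM + 1) was tested with limma 3.58.1 (R 4.3.3, trend), two-sided, with Benjamini-Hochberg adjustment over genes at FPKM 1 or more in at least 3 libraries. The 24 libraries of the 4 lines were fitted together (16 residual degrees of freedom) and the other 6 alone (4). GENCODE 29 exon lengths turned 100% of the values above 0 of 25442 genes into whole reads within 0.01; lengths of 19201 other genes were solved from the values themselves (3 unsolved). These reads entered voom fits in limma with TMM library sizes from an own implementation or, added after seeing the data, library totals. Named members were the 5 largest rises and falls that passed in each comparison, the 5 smallest p of each F test, members under FPKM 10 in every group and members set for their role; RPL18, RPS12, RPS15, RPS29, RPS18 and RPS2 were picked after their values were seen. Scripts were tested on simulated data. Same-numbered HT libraries deviated together (r between 0.167 and 0.347 in the 3 pairs), so HT numbers pair by the data. Pairing was unclear in OCI-LY19 (4 of 6 samples correlated best with their own number) and OCI-LY3 (2 of 6), and not seen in SUDHL5 (0 of 6). Same-numbered library names shared a prefix of unstated meaning in HT and OCI-LY3, and in OCI-LY19 for replicates 1 and 3. The main fit used no pairing. Replicates differed by more than sampling noise in each group, by unequal amounts, and were counted as separate samples. Between replicates the mean chi-square of recovered reads per gene was 1.917 to 2.264 in untreated SUDHL5 and 12.47 to 28.27 in untreated OCI-LY3. The main fit gave these lines a common spread for each gene. Alternatives were pseudocount, filter, scale, voom, replicate block, tag, the line's own libraries and leaving out each library. Some genes are not reported here.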

Additional observations from a re-analysis of the deposited data

Results flagged for a closer look

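The response to doxorubicin differed among the 4 lines, by the F test of the difference itself in limma, for 42 members. The smallest adjusted p values were 6.03e-06 for RPS4X, 1.06e-05 for RPL3, 1.26e-05 for RPS19, 1.47e-05 for RPS14 and 6.44e-05 for RPS3A. Of these 5, RPS14 passed in both directions, falling in OCI-LY3 (-0.43) and HT (-0.28) and rising in OCI-LY19 (0.26), while the other 4 rose in OCI-LY19 and did not pass in OCI-LY3 or HT. The RPS14 falls ended after quantile normalization (adjusted p = 0.0859 and 0.183), and its rise ended under 3 alternatives, those that use median-of-ratios factors or TMM library sizes (0.115 to 0.183). RPS3A, a small subunit protein, read 599.5, 572.2 and 595.8 FPKM in untreated OCI-LY19 and 805.7, 791.0 and 792.5 after doxorubicin (0.43 ± 0.06, adjusted p = 1.29e-06).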

How the results depend on the processing

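With median-of-ratios factors, with or without the members among the genes that set them, OCI-LY3 had 1 rise and 64 falls, HT 14 falls and OCI-LY19 20 rises, and the response in OCI-LY3 was below that in SUDHL5 for 60 and 61 members. Voom with TMM library sizes gave 1 rise and 63 falls in OCI-LY3, 15 falls in HT, 20 rises and 6 falls in OCI-LY19 and 60 for that response difference. Quantile normalization gave 12 rises and 9 falls in OCI-LY3, 1 and 5 in HT, 19 and 3 in SUDHL5, 14 for the response difference and 36 members lower in untreated HT than SUDHL5. The tag as a covariate was not run for untreated levels against SUDHL5, since all SUDHL5 libraries and no others of that table carried L3. Without a filter 1 member rose in OCI-LY3, 3 in SUDHL5 and 21 passed for the response difference; on the TPM scale 1 rose in SUDHL5. Fits on a line's own 6 libraries gave 12 falls in OCI-LY3, 5 in HT, and 36 rises and 3 falls in SUDHL5. Shares over all genes are not given for these fits. RPL10 in OCI-LY3 turned to -0.0802 and -0.0837 with median-of-ratios scaling and to -0.0381 with TMM, and with quantile normalization RPL11, RPL9 and RPS27A turned to 0.0417, 0.0792 and 0.0412; the cause was not tested. Voom with library totals, added after seeing the data, gave 27 falls in OCI-LY3 and 34 rises in OCI-LY19.

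Leaving out 1 library at a time gave 1 to 3 rises and 16 to 38 falls in OCI-LY3, 4 to 6 falls in HT, 25 to 43 rises and 1 to 5 falls in OCI-LY19 and 3 to 5 rises in SUDHL5. The F tests then passed for 37 to 50 members (response) and 70 to 72 (untreated). The 3 response differences ranged over 36 to 53 (OCI-LY3 below OCI-LY19), 23 to 41 (HT below OCI-LY19) and 23 to 39 (OCI-LY3 below SUDHL5), and the 3 untreated differences from SUDHL5 over 44 to 55 (OCI-LY3), 52 to 54 (HT) and 54 to 58 (OCI-LY19). With the replicate block HT had 11 falls, OCI-LY3 29, OCI-LY19 34 rises and 4 falls and SUDHL5 8 rises and 1 fall; of the named members it ended 1 call, RPS6 in OCI-LY3 (adjusted p = 0.0696). Same-numbered samples correlated between -0.012 and 0.362 in OCI-LY3 (2 of 6 best with their own number), 0.036 and 0.355 in OCI-LY19 (4 of 6), -0.02 and -0.014 in SUDHL5 (0 of 6) and -0.115 and 0.118 in OCI-LY19R with OCI-LY19S (2 of 6). Differences between untreated lines could not be fitted with a block inside each line. Among named members, 540 refits kept side and direction, 52 lost the call and 6 turned; with a library left out 238 kept it and 62 lost it.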
